A study of Mus musculus with 8 samples.

Results

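The 41 genes described here encode transporters and enzymes of glycolysis, the pentose phosphate pathway, pyruvate dehydrogenase control, the tricarboxylic acid (TCA) cycle and itaconate synthesis, together with the transcription factor subunit Hif1a. They were chosen by gene name. The deposited table holds 54532 genes, of which 42 carry one of the 41 names, because Aldoa stands for 2 gene identifiers. The second Aldoa identifier held at most 5 reads in any library and was not tested. The other 41 were among the 12234 genes that passed the filter on low counts.

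Reads were counted per gene in bone marrow-derived macrophages (BMDMs) of the mouse, which are macrophages grown in culture from bone marrow cells. Control cells were given no stimulus, and LPS cells were given lipopolysaccharide, a component of the outer membrane of Gram-negative bacteria, at 100 ng/ml for 4 h. Interleukin 4 (IL-4), a cytokine of type 2 immune responses, was given to the IL-4 group at 20 ng/ml for 24 h. In the IL-4 then LPS group the same IL-4 treatment was followed by a wash and by LPS at the same dose and duration as in the LPS group. Each group held 2 libraries, replicates 1 and 3 of the labels, and below the values of a group are always given in that order. The series title speaks of trained immunity induced by IL-4, so the question for these genes is whether earlier IL-4 changed their response to LPS. Strain, genotype, age, the number of animals, the growth factor used and whether the IL-4 group was also washed are not given in the sources used here.

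Library totals ran from 7924932 to 9431852 counts, and the 41 genes took 1.23% to 1.77% of them. All 10 macrophage markers on a list of such genes, among them Csf1r and Adgre1, were detected, with a summed level of 12500 to 24971 CPM (reads scaled to a common library size, corrected for composition). Summed markers of neutrophils (0.864 to 8.004 CPM), dendritic cells (1.27 to 13.7), lymphocytes (1.99 to 32.6), mast cells, basophils and eosinophils (0.0892 to 90.03), stromal cells (4.25 to 47.5) and erythroid cells (0 to 0.552) were low. The sums of dendritic cell, mast cell and stromal markers were higher in every library with LPS than in any library without it, and Xcr1, Ccr7, Hdc, Pdgfrb, Cdh5 and the lymphocyte kinase gene Lck rose in both LPS comparisons. The defining lymphocyte genes Cd3e and Ncr1 and the mast cell and basophil genes Ms4a2 and Mcpt8 held 0 reads in all 8 libraries. On these lists 3 of the 10 lymphocyte genes and 3 of the 6 mast cell, basophil and eosinophil genes did hold reads. The part of these cells in the results below was not tested. Replicate number went with sex: Xist held 2936 to 4465 reads in each replicate 1 library and 0 in each replicate 3 library. In bulk libraries, fewer cells of a kind and less RNA per cell cannot be told apart.

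Glycolysis splits glucose into pyruvate and yields ATP in the cytosol, the pentose phosphate pathway draws off glucose 6-phosphate to make NADPH and ribose, and the TCA cycle oxidises acetyl groups in mitochondria. Macrophages stimulated with LPS are known for a shift to aerobic glycolysis and for a TCA cycle interrupted at several steps, with citrate drawn off towards lipid synthesis and towards itaconate, an antimicrobial and anti-inflammatory metabolite made by Acod1. Macrophages stimulated with IL-4 are known for an oxidative metabolism that relies on an intact TCA cycle.

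In these libraries the LPS response of the 41 genes was uneven along the pathway. Acod1, all 3 hexokinases, the phosphofructokinase subunits Pfkp and Pfkl, the regulator Pfkfb3, Hif1a, the glucose transporter Slc2a1, the kinase Pdk3 and citrate synthase Cs rose in LPS against control, while no enzyme of the lower glycolytic chain from Aldoa to Ldha was called. Idh1, Idh2, Aco1, Suclg2, the regulator Pfkfb4 and the pentose phosphate enzymes G6pdx and Taldo1 fell. Calls below are at an adjusted p under 0.05, from edgeR's quasi-likelihood test, with p adjusted by Benjamini-Hochberg across the 12234 tested genes. On that rule 11 of the 41 genes were higher after LPS (26.8%, against 21.8% of all tested genes) and 7 were lower (17.1%, against 18.6%). At a log2 fold change of at least 1 in size, 10 were higher (24.4%, against 14.6% of all tested genes) and 2 lower (4.88%, against 11.9%). Their median log2 fold change was 0.02, and that of all tested genes -0.01, so that in median these genes stood close to the background.

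After prior IL-4, in IL-4 then LPS versus IL-4, 10 genes were higher (24.4%, against 20.7% of all tested genes) and 6 lower (14.6%, against 18.6%). The 10 that rose had also risen without IL-4, and the 6 that fell had also fallen, so that Slc2a1 and Idh2 were the 2 genes called in LPS against control alone. Slc2a1 and Idh2 were both called after prior IL-4 in a fit with the replicate number as a block. Calls in separate comparisons cannot show whether the responses differed in size, and that difference was tested directly, as given below. Pooling groups, the 4 libraries with LPS lay wholly above the 4 without it for 12 genes (29.3%, against 26% of all tested genes) and wholly below for 7 (17.1%, against 25.6%), and the libraries overlapped for 22.

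With the replicate block, 13 genes were called higher and 9 lower in LPS against control, where the background was 28.2% and 25.5%. The block added Pgk1 (0.42 ± 0.11, adjusted p 0.0112) and Mdh2 (0.34 ± 0.10, 0.0185) to the genes called higher, although both turn negative under library size alone without the block (-0.18 and -0.26), and Gpi1 (-0.32 ± 0.12, 0.0485) and Mdh1 (-0.31 ± 0.12, 0.0495) to those called lower. In IL-4 then LPS versus IL-4 it called 13 higher and 8 lower, with a background of 26% and 25.8%. The added genes were Slc2a1 (0.68 ± 0.11, adjusted p 0.0006), Pgk1 (0.35 ± 0.11, 0.0269) and Mdh2 (0.27 ± 0.10, 0.0468), which were higher (Pgk1 and Mdh2 turned to -0.16 and -0.25 under library size alone), and Idh2 (-0.41 ± 0.12, 0.0204) and Gapdh (-2.38 ± 0.72, 0.0208), which were lower.

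**Figure D1:**
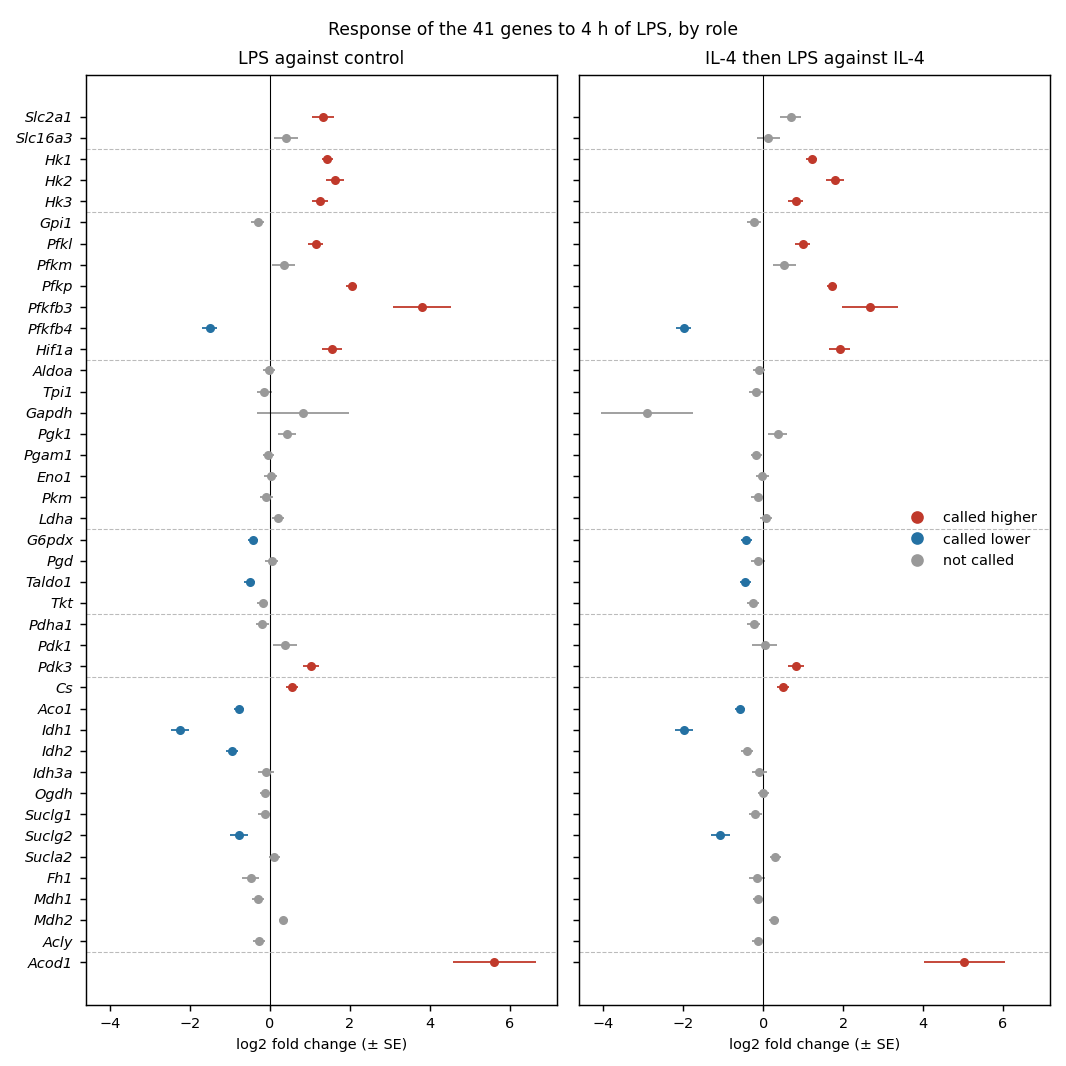
Log2 fold change (points, with bars of 1 SE) of each of the 41 genes in LPS against control (left) and in IL-4 then LPS versus IL-4 (right), with dashed lines between roles and both panels on the same axis. Most genes called higher are hexokinases or phosphofructokinase and its regulators, with Pdk3, Cs and Acod1 (log2 fold change 5.61 and 5.03) in both panels and Slc2a1 in the left panel, and the lower glycolytic enzymes other than Gapdh lie close to 0.

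The directions above are relative to all genes, and they depend on how libraries are scaled. With library size alone in place of composition factors, the median of all tested genes was -0.61 in LPS against control and -0.56 in IL-4 then LPS versus IL-4, and the share of calls that were higher went from 53.9% to 21.2% and from 52.8% to 22.5%. With upper-quartile factors it was 36.6% and 36%. Under library size alone 8 of the 11 genes stayed higher in LPS against control, while Slc2a1 (0.72, adjusted p 0.0694), Pdk3 (0.42, 0.143) and Cs (-0.056, 0.709) were no longer called. All 7 that fell stayed lower, and 17 genes that had not been called became lower. Among all tested genes the number called lower went from 2279 to 5744. After prior IL-4, Hk3 (0.30, 0.127), Pdk3 (0.31, 0.28) and Cs (-0.022, 0.893) were no longer called, all 6 that fell stayed lower and 18 further genes became lower. Among all tested genes the number called lower there went from 2271 to 5320.

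Promoter windows are shown for 6 genes, none of them from the transport, pentose phosphate, pyruvate dehydrogenase or TCA cycle roles. Acod1, Hk2, Pfkp and Pfkfb3 rose after LPS, Pfkfb4 fell, and Ldha, a well-known hypoxia target, was not called. The sequences are from RefSeq on GRCm38.p6 and, where a gene has several annotated starts (Pfkfb3 and Ldha), the window with the most matches is shown. Each runs from 250 bases before to 50 bases after an annotated start, 5′ to 3′ on the gene's strand. Capitals mark matches to the core of the hypoxia response element, the site bound by the Hif1a-Arnt dimer, which was searched as ACGTG and GCGTG on both strands, so that a match on the other strand reads CACGT or CACGC. A palindromic CACGTG counts as 2 matches that overlap.
Acod1 (chr14:103046762-103047061, plus strand): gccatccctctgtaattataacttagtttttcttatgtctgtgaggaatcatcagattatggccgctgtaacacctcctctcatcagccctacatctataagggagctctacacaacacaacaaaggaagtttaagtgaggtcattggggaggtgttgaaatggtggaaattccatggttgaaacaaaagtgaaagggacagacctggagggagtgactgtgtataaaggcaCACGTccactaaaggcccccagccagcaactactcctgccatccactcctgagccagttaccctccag
Hk2 (chr6:82774405-82774704, minus strand): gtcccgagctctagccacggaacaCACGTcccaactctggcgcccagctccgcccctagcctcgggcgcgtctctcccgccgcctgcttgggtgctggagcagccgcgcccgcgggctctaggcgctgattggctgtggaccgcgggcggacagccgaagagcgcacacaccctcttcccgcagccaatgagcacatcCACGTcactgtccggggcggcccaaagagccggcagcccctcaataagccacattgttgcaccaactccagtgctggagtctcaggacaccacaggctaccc
Pfkp (chr13:6648722-6649021, minus strand): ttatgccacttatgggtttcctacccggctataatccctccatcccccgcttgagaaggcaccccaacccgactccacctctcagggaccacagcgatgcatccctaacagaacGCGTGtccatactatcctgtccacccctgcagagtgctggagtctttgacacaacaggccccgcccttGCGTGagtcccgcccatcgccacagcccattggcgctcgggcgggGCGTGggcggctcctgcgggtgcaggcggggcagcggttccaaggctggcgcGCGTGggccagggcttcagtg
Pfkfb3 (chr2:11502041-11502340, minus strand): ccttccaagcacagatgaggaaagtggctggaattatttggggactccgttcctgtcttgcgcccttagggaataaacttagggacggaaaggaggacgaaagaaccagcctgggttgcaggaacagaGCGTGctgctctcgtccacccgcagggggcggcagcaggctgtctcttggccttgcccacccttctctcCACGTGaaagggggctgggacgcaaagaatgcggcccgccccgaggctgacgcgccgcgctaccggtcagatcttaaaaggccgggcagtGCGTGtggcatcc
Pfkfb4 (chr9:108991652-108991951, plus strand): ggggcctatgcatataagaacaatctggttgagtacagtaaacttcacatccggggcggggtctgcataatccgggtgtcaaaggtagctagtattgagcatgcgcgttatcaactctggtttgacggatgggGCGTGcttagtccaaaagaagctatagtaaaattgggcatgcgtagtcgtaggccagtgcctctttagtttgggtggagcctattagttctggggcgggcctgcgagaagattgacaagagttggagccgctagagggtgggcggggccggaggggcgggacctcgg
Ldha (chr7:46845554-46845853, plus strand): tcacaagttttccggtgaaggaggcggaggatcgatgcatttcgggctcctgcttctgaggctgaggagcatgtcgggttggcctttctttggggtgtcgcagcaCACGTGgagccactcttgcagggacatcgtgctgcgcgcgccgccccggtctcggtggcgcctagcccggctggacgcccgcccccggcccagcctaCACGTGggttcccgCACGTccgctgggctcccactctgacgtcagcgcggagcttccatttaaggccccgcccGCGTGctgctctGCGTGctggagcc
The Ldha window held 7 cores, those of Pfkp and Pfkfb3 4 each, that of Hk2 2, and those of Acod1 and Pfkfb4 1 each, while the other windows of Ldha and Pfkfb3 held 2 and 1. The table held 59 windows for 40 of the 41 genes, and 47 of the 59 (79.7%) held a core, against 14380 of all 32851 windows (43.8%). These windows were richer in CpG, with a median of 20 CpG dinucleotides against 7 in all windows, and the cores themselves contain CpG. The NF-kB consensus was found in 9 of the 59 windows (15.3%), against 11.2% of all windows, and in none of the 6 windows shown. A match is a description of the letters, and binding was not measured.

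Glucose uptake and its phosphorylation opened the pathway. Slc2a1 (GLUT1, ENSMUSG00000028645, chr4:119108711-119137983, mm10), the main glucose transporter of activated macrophages, was at 76.9 and 55.3 CPM in control, 182 and 149 after LPS, 92.3 and 64.7 after IL-4 and 151 and 102 after IL-4 then LPS. The libraries with LPS lay above those without, with a wide gap between replicates. Slc2a1 rose in LPS against control by 1.32 ± 0.27 (log2 fold change ± SE) with an adjusted p of 0.00557, and was at 0.69 ± 0.26 in IL-4 then LPS versus IL-4 (adjusted p 0.0723). Slc16a3, the lactate exporter MCT4, was at 126 and 94 CPM in control, 127 and 164 after LPS, 106 and 56.4 after IL-4 and 95.3 and 82.4 after IL-4 then LPS. LPS lay above each of the other groups, which overlapped one another, and no comparison was called.

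Hexokinases trap glucose as glucose 6-phosphate. Hk1, the constitutive form that binds mitochondria, was at 122 and 118 CPM in control, 316 and 332 after LPS, 119.9 and 106 after IL-4 and 278 and 246 after IL-4 then LPS. Hk2, the inducible form, was at 79.8 and 71.9 CPM in control, 285 and 181 after LPS, 56.5 and 60.9 after IL-4 and 226 and 182 after IL-4 then LPS. For both, every library with LPS lay above every library without it. Hk3, the form typical of myeloid cells, was at 298 and 383 CPM in control, 787 and 836 after LPS, 467 and 594 after IL-4 and 880.2 and 989 after IL-4 then LPS. Its libraries with LPS also lay above the rest, and its control libraries were the lowest. In LPS against control the log2 fold changes were 1.43 ± 0.14 for Hk1 (adjusted p 0.000136), 1.62 ± 0.22 for Hk2 (0.000942) and 1.25 ± 0.19 for Hk3 (0.00144). After prior IL-4 they were 1.21 ± 0.14 (0.000324), 1.79 ± 0.23 (0.000599) and 0.82 ± 0.19 (0.0107). The Hk3 call after prior IL-4 was lost without IL-4 replicate 1 or without IL-4 then LPS replicate 3 (0.66 to 1.02 over all libraries left out, highest adjusted p 0.0818).

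Phosphofructokinase makes the committed step of glycolysis, and its tetramers are built from the liver (Pfkl), muscle (Pfkm) and platelet (Pfkp) subunits. Pfkp (ENSMUSG00000021196, chr13:6579768-6648777) was at 84.1 and 83.1 CPM in control, 351 and 337 after LPS, 127 and 126 after IL-4 and 442 and 397 after IL-4 then LPS. Its groups did not overlap in any of the 4 pairs compared, and replicates lay close together. Pfkl was at 59.6 and 82.4 CPM in control, 139 and 174 after LPS, 45.6 and 48.1 after IL-4 and 97.6 and 88.9 after IL-4 then LPS. Its 4 libraries with LPS lay above the 4 without, and both groups with IL-4 lay below their counterparts. Pfkp rose by 2.04 ± 0.13 in LPS against control (adjusted p 2.36e-05) and by 1.73 ± 0.13 after prior IL-4 (4.54e-05), and Pfkl by 1.14 ± 0.19 (0.00207) and 0.99 ± 0.19 (0.00432). Pfkm was low, at 6.15 to 11.2 CPM, and was not called (0.34 ± 0.28 and 0.53 ± 0.28).

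Pfkfb3 and Pfkfb4 are bifunctional enzymes that set the level of fructose 2,6-bisphosphate, the activator of phosphofructokinase, and they moved in opposite directions. Pfkfb3 (ENSMUSG00000026773, chr2:11471433-11554077), in which the kinase activity dominates, was at 54.2 and 28.5 CPM in control, 915 and 248 after LPS, 44.5 and 27.2 after IL-4 and 328 and 131 after IL-4 then LPS. Every library with LPS lay above every library without it, and replicate 1 was higher than replicate 3 in all 4 groups, by 1.64-fold to 3.69-fold. Pfkfb4 (ENSMUSG00000025648, chr9:108991778-109032228) was at 53.6 and 64.1 CPM in control, 19.7 and 21.5 after LPS, 68.6 and 58.9 after IL-4 and 18.2 and 14 after IL-4 then LPS, and all libraries with LPS lay below all others. Pfkfb3 rose by 3.81 ± 0.72 in LPS against control (adjusted p 0.00441, with 2.58 without LPS replicate 1 and 4.47 without LPS replicate 3) and by 2.68 ± 0.69 after prior IL-4 (0.0178). That second call was lost without IL-4 replicate 1, IL-4 replicate 3 or IL-4 then LPS replicate 1 (1.87 to 3.19 over all libraries left out, highest adjusted p 0.0903). The log2 fold change of Pfkfb4 was -1.51 ± 0.18 (0.000435) and -1.99 ± 0.18 (0.000128).

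Hif1a, the oxygen-regulated subunit of the factor that drives many glycolytic genes in hypoxia, was at 146 and 119.6 CPM in control, 468 and 309 after LPS, 86.1 and 91.3 after IL-4 and 397 and 271 after IL-4 then LPS. Libraries with LPS lay above those without, and replicate 1 was the higher in both groups with LPS. Hif1a rose by 1.55 ± 0.25 in LPS against control (adjusted p 0.00218) and by 1.91 ± 0.26 after prior IL-4 (0.000834). Gpi1, which converts glucose 6-phosphate to fructose 6-phosphate, stayed between 172 and 265 CPM, and its log2 fold change was -0.31 ± 0.17 and -0.23 ± 0.17.

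**Figure D2:**
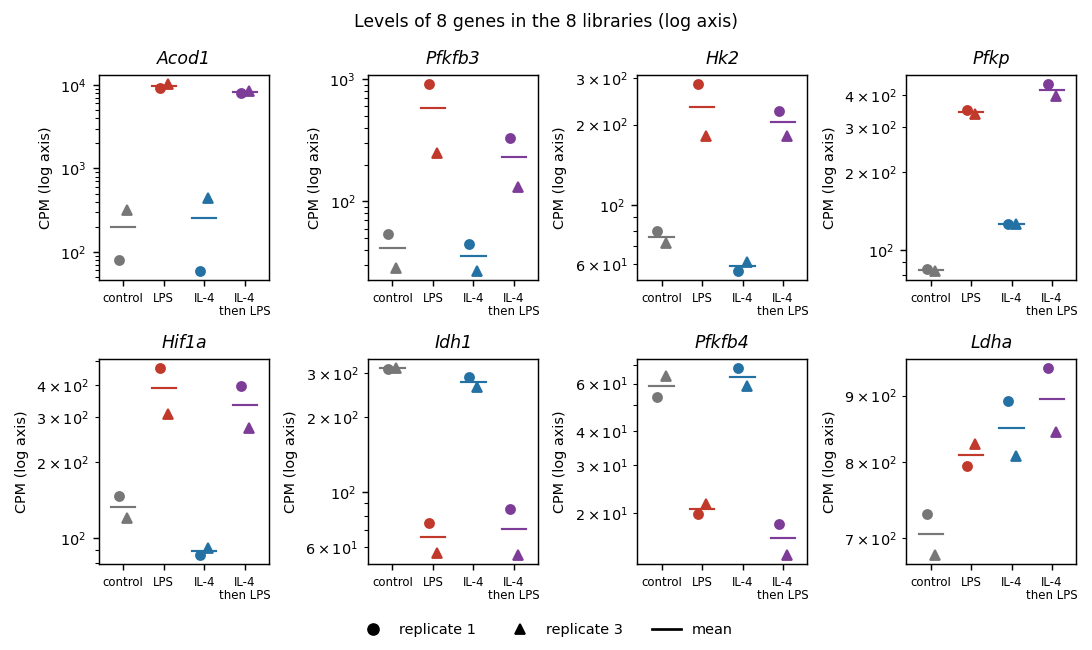
Level in CPM (log axis) of 8 genes in each of the 8 libraries, by group, with circles for replicate 1, triangles for replicate 3 and lines for the group mean. Acod1, Pfkfb3, Hk2, Pfkp and Hif1a are above, and Idh1 and Pfkfb4 below, their level without LPS in all 4 libraries with LPS, while Ldha spans only 730.1 and 679.8 CPM in control to 945 and 844 CPM after IL-4 then LPS.

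The lower glycolytic chain, from aldolase to lactate dehydrogenase, was not called in any comparison with composition factors, the filter on low counts and no block. Of its 8 genes 0 were higher and 0 lower in LPS against control by edgeR, and DESeq2 also called 0. By edgeR 0 had an unadjusted p under 0.05, against 6094 of the 12234 tested genes. In IL-4 then LPS versus IL-4 edgeR and DESeq2 again called 0. There 1 of the 8, Gapdh, had an unadjusted p under 0.05, against 5885 of the tested genes. Pkm, the pyruvate kinase gene, was at 1600.3 and 1646 CPM in control, 1610.3 and 1433 after LPS, 1992 and 1859.5 after IL-4 and 1902 and 1593 after IL-4 then LPS, and Aldoa, aldolase A, at 919.7 and 1024 CPM in control, 909.8 and 999 after LPS, 1021 and 1061 after IL-4 and 968 and 973 after IL-4 then LPS. Ldha, which reduces pyruvate to lactate, was at 730.1 and 679.8 CPM in control, 795 and 826 after LPS, 891 and 809 after IL-4 and 945 and 844 after IL-4 then LPS. Control was its lowest group, IL-4 overlapped both groups with LPS, and IL-4 then LPS lay above LPS. Its log2 fold change was 0.20 ± 0.14 in LPS against control (adjusted p 0.295) and 0.07 ± 0.14 after prior IL-4 (0.723).

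The other members of the chain gave log2 fold changes in LPS against control of -0.14 ± 0.19 for Tpi1 (triose phosphate isomerase), 0.42 ± 0.23 for Pgk1 (phosphoglycerate kinase), -0.04 ± 0.13 for Pgam1 (phosphoglycerate mutase) and 0.02 ± 0.15 for Eno1 (enolase). Their summed CPM with Aldoa, Gapdh, Pkm and Ldha was 5040.0 and 5076 in control, 5268 and 5037 after LPS, 6019 and 5572 after IL-4 and 6029 and 5149 after IL-4 then LPS. The sum of the 3 hexokinases, by contrast, was 499.8 and 573 in control and 1388 and 1348 after LPS. Under library size alone, 5744 of the 12234 tested genes were called lower in LPS against control and 5320 after prior IL-4. Among them were 6 of the 8 (Aldoa, Tpi1, Pgam1, Eno1, Pkm and Ldha) in LPS against control and 7, with Gapdh, after prior IL-4. Ldha (-0.40), Eno1 (-0.59) and Pgk1 (-0.18) thereby turned negative in LPS against control, and with upper-quartile factors Pgam1 was called lower after prior IL-4 (-0.42).

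Counts of several of these enzymes are uncertain, since the handling of reads with several matches is not given and other genes share their sequence. Gapdh, the glyceraldehyde phosphate dehydrogenase and a common reference gene, held 57 and 25 reads in control, 71 and 24 after LPS, 562 and 31 after IL-4 and 28 and 23 after IL-4 then LPS. It was singled out after these values were seen. IL-4 replicate 1 stood apart from the other 7 libraries. Without that library, in the fit without the block, the log2 fold change of Gapdh went from 2.82 to -0.42 in IL-4 against control. In IL-4 then LPS versus IL-4 it went from -2.91 to 0.32. The Gapdh call with the block was not refitted without that library. In the GENCODE M21 transcripts 20.9% of the 100-base stretches of Gapdh also occurred in transcripts of 86 other genes, as did 51.7% of those of Pgk1 (3 other genes), 33.9% of Pgam1 (2), 20.4% of Eno1 (4) and 12.3% of Pkm (3). Exons of other genes overlapped 16.1% of the exon bases of Pdha1 (Map3k15), 15.3% of Pkm, 13.6% of G6pdx (Ikbkg), 11.5% of Gpi1, 10.7% of Pfkm, 8.11% of Hif1a and 5.58% of Pfkp (Pitrm1). The other exons lay on the same strand for all 767 overlapped bases of Pkm, 341 of 359 of Pfkm and 148 of 478 of Hif1a. Reads there cannot be assigned with certainty, since no strand setting is stated and none would separate exons on the same strand. Whether either feature changed their counts was not tested.

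Per length, members of the lower chain and Taldo1 led these transcripts in control cells. The mean level per kb of exon was 334 CPM for Aldoa, 325 for Pkm, 281 for Pgam1, 273 for Taldo1 and 213 for Ldha, and lower in the chain 106 for Eno1 and 96.2 for Tpi1. It was 92.5 CPM per kb for Hk3, 12.7 for Hk2, 10.6 for Pfkl and 6.24 for Pfkp. After LPS, Hk3 stood at 220.4 CPM per kb, near Ldha at 245, and Pfkp at 25.7.

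In the pentose phosphate pathway 2 of 4 genes fell and none rose, by edgeR as by DESeq2, in both LPS comparisons, where 18.6% of all tested genes were lower in each. G6pdx, the glucose 6-phosphate dehydrogenase that opens the oxidative branch, was at 299 and 313 CPM in control, 222 and 232 after LPS, 280.0 and 297 after IL-4 and 230.2 and 202 after IL-4 then LPS. Taldo1, transaldolase of the non-oxidative branch, was at 619 and 565 CPM in control, 423 and 408 after LPS, 540.1 and 462 after IL-4 and 379 and 356 after IL-4 then LPS. For both, all libraries with LPS lay below all libraries without it. The log2 fold changes in LPS against control were -0.43 ± 0.13 for G6pdx (adjusted p 0.0324) and -0.51 ± 0.14 for Taldo1 (0.0238), and after prior IL-4 -0.42 ± 0.13 (0.0372) and -0.45 ± 0.14 (0.0395). Pgd, the enzyme after G6pdx, and Tkt, transketolase, were not called (0.04 ± 0.17 and -0.18 ± 0.14 in LPS against control). In each LPS comparison, 3 of the 4 genes were called lower with upper-quartile factors and 4 of 4 under library size alone. Of the 12234 tested genes, 3542 and 5744 were lower at these scalings in LPS against control, and 3426 and 5320 after prior IL-4.

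The small changes of G6pdx and Taldo1 depended on single libraries. In LPS against control, G6pdx was no longer called without control replicate 1 or 3 or LPS replicate 1 or 3 (-0.52 to -0.40, highest adjusted p 0.131), nor Taldo1 without control replicate 1 or LPS replicate 1 or 3 (-0.61 to -0.48, highest adjusted p 0.115). After prior IL-4, leaving out any 1 of the 8 libraries ended both calls (G6pdx -0.51 to -0.32, Taldo1 -0.54 to -0.33).

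Pyruvate dehydrogenase carries pyruvate into the TCA cycle and is switched off by the Pdk kinases. Pdk3 was at 18.2 and 13.3 CPM in control, 35.2 and 28.8 after LPS, 11.5 and 12.5 after IL-4 and 22.7 and 19.8 after IL-4 then LPS. The libraries with LPS lay above those without, and both groups with IL-4 lay below their counterparts. Pdk3 rose by 1.02 ± 0.20 in LPS against control (adjusted p 0.00529) and by 0.82 ± 0.21 after prior IL-4 (0.0156). The latter call was lost without IL-4 replicate 1 or IL-4 then LPS replicate 1 (0.72 to 0.92, highest adjusted p 0.0820). Pdk1, a kinase best known as a hypoxia target, ranged from 24.9 to 51.3 CPM and Pdha1, the catalytic alpha subunit of the complex, from 35.5 to 60.4 CPM, and neither was called (0.37 ± 0.30 and -0.19 ± 0.16 in LPS against control).

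Among the 13 genes of the TCA cycle and of citrate use, Idh1 made the largest change in both LPS comparisons. Idh1 (ENSMUSG00000025950, chr1:65158616-65186500), the cytosolic enzyme that turns isocitrate into 2-oxoglutarate with NADPH, was at 312 and 314 CPM in control, 74.7 and 56.6 after LPS, 289 and 263 after IL-4 and 85.2 and 55.9 after IL-4 then LPS. All 4 libraries with LPS lay far below the other 4. Idh1 changed by -2.25 ± 0.23 in LPS against control (adjusted p 0.000182) and by -1.97 ± 0.23 after prior IL-4 (0.000366), and it kept both calls under each alternative run. Idh2, the mitochondrial NADPH-linked enzyme, was at 32.8 and 33.2 CPM in control, 17.8 and 16.6 after LPS, 39.3 and 37.7 after IL-4 and 31.5 and 26.4 after IL-4 then LPS. Its LPS group lay lowest, and those of IL-4 then LPS lay between them and the control libraries. Idh2 changed by -0.94 ± 0.15 in LPS against control (0.00187) and by -0.41 ± 0.15 after prior IL-4 (0.0564). Idh3a, the catalytic subunit of the NAD-linked enzyme of the cycle proper, ranged from 24.7 to 36.6 CPM and was not called (-0.10 ± 0.19 and -0.10 ± 0.19).

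Aco1, the cytosolic aconitase that doubles as an iron-regulatory protein, was at 72.2 and 81.4 CPM in control, 43.3 and 46.5 after LPS, 93.1 and 99.8 after IL-4 and 61.8 and 66.9 after IL-4 then LPS. Suclg2, the GTP-forming subunit of succinyl-CoA ligase, was at 11.9 and 12.4 CPM in control, 7.13 and 7.18 after LPS, 8.65 and 7.06 after IL-4 and 3.93 and 3.5 after IL-4 then LPS, on 27 to 138 reads. Control was above LPS for both, with no overlap, and IL-4 above IL-4 then LPS. Aco1 changed by -0.77 ± 0.13 in LPS against control (adjusted p 0.0022) and -0.58 ± 0.13 after prior IL-4 (0.00803). Suclg2 changed by -0.77 ± 0.22 (0.0266) and -1.08 ± 0.24 (0.00893). In LPS against control, DESeq2 did not call Suclg2 (adjusted p 0.0810), and its call was lost without either control library or either LPS library (-0.86 to -0.76, highest adjusted p 0.0955). After prior IL-4, Suclg2 was not called without IL-4 replicate 1 or IL-4 then LPS replicate 3 (-1.20 to -0.93, 0.0617), nor Aco1 without IL-4 replicate 3 or IL-4 then LPS replicate 1 (-0.64 to -0.51, 0.0684).

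Cs, citrate synthase, which makes citrate from oxaloacetate and acetyl-CoA, was the 1 gene of this group that rose. It was at 150.5 and 172 CPM in control, 215 and 256 after LPS, 178 and 201 after IL-4 and 259 and 277 after IL-4 then LPS, with the libraries with LPS above the others, and changed by 0.55 ± 0.15 in LPS against control (adjusted p 0.0217) and 0.50 ± 0.15 after prior IL-4 (0.0317). Under library size alone it turned to -0.056 and -0.022. Its call in LPS against control was lost without control replicate 1 or 3, LPS replicate 3 or IL-4 replicate 1 or 3 (0.39 to 0.67, highest adjusted p 0.188), and after prior IL-4 without any 1 of the 4 libraries compared (0.41 to 0.61, 0.183). The other genes were not called in LPS against control: Ogdh, a subunit of the 2-oxoglutarate dehydrogenase complex (-0.12 ± 0.13), Suclg1 and Sucla2, of succinyl-CoA ligase (-0.13 ± 0.17 and 0.11 ± 0.14), Fh1, fumarase (-0.48 ± 0.21, adjusted p 0.103), the malate dehydrogenases Mdh1 (-0.30 ± 0.15) and Mdh2 (0.34 ± 0.12), and Acly, which cleaves exported citrate (-0.27 ± 0.15). Sucla2, the ATP-forming partner of Suclg1, was 1 of the 12 genes whose libraries with LPS all lay above those without, at 45.0 to 55.5 CPM against 39.3 to 44.5. Under library size alone it was called lower in LPS against control (-0.50). Of the 13 genes, 8 were called lower in LPS against control with upper-quartile factors and 11 under library size alone, against 3542 and 5744 of the 12234 tested genes. After prior IL-4 these counts were 4 and 10 of the 13, against 3426 and 5320 of the tested genes.

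Acod1 (Irg1, ENSMUSG00000022126, chr14:103046977-103056573), which decarboxylates cis-aconitate to itaconate, made the largest change of the 41 genes. It was at 79.4 and 320.0 CPM in control, 9173 and 10307 after LPS, 59.6 and 444 after IL-4 and 7987 and 8526 after IL-4 then LPS. Libraries with and without LPS were separated by more than the spread within either, and within the groups without LPS replicate 3 was several times higher than replicate 1. Acod1 rose by 5.61 ± 1.04 in LPS against control (adjusted p 0.0039), a 48.8-fold change, and by 5.03 ± 1.01 after prior IL-4 (0.00596), a 32.8-fold change. These sizes rest on the libraries without LPS: the log2 fold change was 4.87 without control replicate 1 and 6.90 without control replicate 3, and after prior IL-4 4.22 without IL-4 replicate 1 and 7.13 without IL-4 replicate 3. Per kb its mean went from 76.1 CPM in control to 3713 after LPS, above each of the other 40 genes. Without Acod1, the members took 1.19% to 1.39% of raw counts in libraries without LPS and 0.860% to 1.07% in libraries with it. These shares are not corrected for composition and do not show a fall in CPM. The 20 members of glycolysis, Hif1a and transport included, summed to 6390 and 6422 CPM in control and 9081 and 7971 after LPS. The sum was lower after LPS for TCA cycle and citrate genes (1277 and 1367 CPM in control, 1024 and 1061 after LPS). It was also lower for pentose phosphate genes (2072 and 2100 CPM in control, 1830 and 1789 after LPS).

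The effect of IL-4 by itself was read from IL-4 against control, which shares its control libraries with the LPS comparison. Summed macrophage markers were at 18271 and 24971 CPM in control and 12500 and 17287 after IL-4, and at 20804 and 23127 after LPS and 13078 and 18101 after IL-4 then LPS, so they were lower with IL-4 within each replicate number. Without the block edgeR called 0 of the 10 markers in either IL-4 comparison, with 3 at an unadjusted p under 0.05 in each. With the replicate block it called 1 marker higher and 3 lower in each, and DESeq2 called 3 lower in each. Their part in the IL-4 results was not tested. By edgeR 0 of the 41 were called higher and 0 lower, where 0.0572% and 0.00817% of all tested genes were. An unadjusted p under 0.05 was found for 9 of the 41 and for 892 of the 12234 tested genes. DESeq2 called 1 of the 41 higher and 0 lower, and 60 higher and 45 lower among all genes. The median log2 fold change was 0.11, against -0.00 over all tested genes. With the replicate block, 2 genes were called higher (4.88%, against 1.5% of all tested genes) and 0 lower (against 0.858%). Hk3 had 0.64 ± 0.19 without the block (adjusted p 0.45) and 0.64 ± 0.11 with it (0.0231), and Pfkp had 0.60 ± 0.13 (0.218) and 0.60 ± 0.10 (0.0184). Pfkp was also the gene that DESeq2 called (0.57, adjusted p 0.0486). For both genes the IL-4 libraries lay above the control libraries, at 467 and 594 CPM against 298 and 383 for Hk3 and at 127 and 126 against 84.1 and 83.1 for Pfkp. With the block, both calls were lost without either control library or either IL-4 library (0.53 to 0.70 for Hk3 and 0.53 to 0.60 for Pfkp, highest adjusted p 0.243 and 0.169).

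Without the block, the genes with an unadjusted p under 0.05 also included Pfkl (-0.60 ± 0.19), Hif1a (-0.58 ± 0.25), Suclg2 (-0.63 ± 0.22), Mdh2 (0.34 ± 0.12), Aco1 (0.33 ± 0.12), Pgam1 (0.33 ± 0.13) and Gapdh (2.82 ± 1.12), and their adjusted p ran from 0.5 to 0.685. Of the 13 TCA cycle genes 10 had a log2 fold change above 0, with a median of 0.14, and 0 were called by edgeR or DESeq2. Above 0 were also 25 of the 41 genes and 18 of 21 other tested genes of the TCA cycle and anaplerosis. No such count is given for all tested genes. Of these 13, 3 had an unadjusted p under 0.05 by edgeR, as had 892 of the 12234 tested genes. Acod1 was at 0.34 ± 0.86 (adjusted p 0.972) and Slc2a1 at 0.25 ± 0.26 (0.896).

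IL-4 then LPS against LPS asked whether cells with earlier IL-4 ended at another level after LPS. By edgeR 0 genes were higher and 0 lower (background 0.049% and 0.0163%), 7 had an unadjusted p under 0.05, and DESeq2 called 0. The median log2 fold change was 0.10, and -0.03 over all tested genes. With the replicate block, 2 were called higher (4.88%, against 1.08% of all tested genes) and 2 lower (4.88%, against 1.22%). The 2 higher genes were Idh2 (0.75 ± 0.14, adjusted p 0.0276, and 0.197 without the block) and Aco1 (0.52 ± 0.10, 0.0401, and 0.294). The 2 lower genes were Pfkfb3 (-1.24 ± 0.23, 0.0291, and 0.633) and Pfkl (-0.73 ± 0.14, 0.0387, and 0.294).

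For Idh2 and Aco1 the group given IL-4 then LPS lay between LPS and control, at 31.5 and 26.4 CPM against 17.8 and 16.6 after LPS for Idh2, and at 61.8 and 66.9 against 43.3 and 46.5 for Aco1. For Pfkl they were at 97.6 and 88.9 CPM against 139 and 174, again without overlap. The Pfkfb3 libraries overlapped, at 328 and 131 against 915 and 248, although within each replicate number the library with prior IL-4 was the lower. With the block, the calls of Idh2 (0.65 to 0.86), Aco1 (0.50 to 0.55) and Pfkl (-0.95 to -0.52) were lost without any 1 of the 4 libraries compared, and those of Aco1 and Pfkl also without either IL-4 library. The Pfkfb3 call (-1.63 to -0.75) was lost without LPS replicate 1 or either library of IL-4 then LPS, and the highest adjusted p of the 4 genes was 0.307. Acod1 was at -0.24 ± 0.85 (adjusted p 0.967), with means of 8257 ± 381 CPM after IL-4 then LPS and 9740.0 ± 802 after LPS (SD, n = 2).

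Suclg2 and Fh1 had large differences that were not called in either fit. Suclg2 was lower after IL-4 then LPS than after LPS in each replicate number (-0.94 ± 0.24, adjusted p 0.316, with the block 0.0984). Fh1 was at 39.2 and 33.6 CPM in control, 22 and 30.1 after LPS, 49.1 and 41.3 after IL-4 and 45.9 and 35.4 after IL-4 then LPS, with a log2 difference between IL-4 then LPS and LPS of 0.64 ± 0.21 (0.455, with the block 0.14). Of the 13 TCA cycle genes 12 had a log2 fold change above 0 in this comparison, with a median of 0.19, Suclg2 being the exception. So had 23 of the 41 genes and 13 of 21 other tested genes of the TCA cycle and anaplerosis. Genes measured in the same libraries are not replicates, and no such count is given for all tested genes. By edgeR or DESeq2 0 of the 13 were called. An unadjusted p under 0.05 by edgeR was found for 4 of the 13 and for 1040 of the 12234 tested genes.

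**Figure D3:**
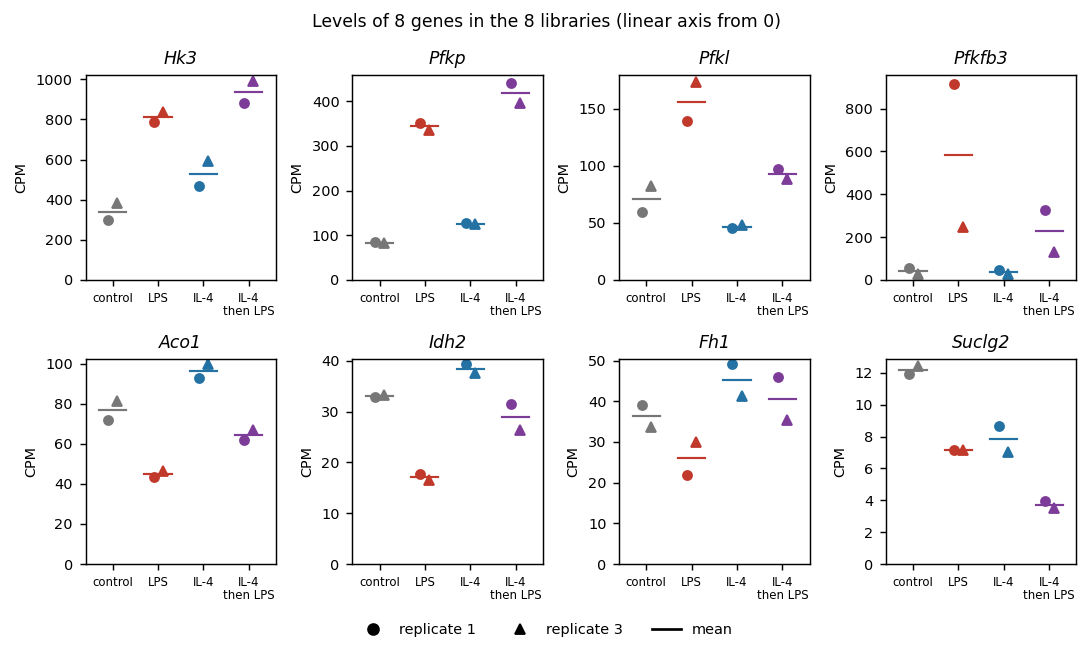
Level in CPM (linear axis from 0) of 8 genes in each of the 8 libraries, by group, with circles for replicate 1, triangles for replicate 3 and lines for the group mean. Hk3 and Pfkp are higher with IL-4 than in control, Pfkl is lower with IL-4 both with and without LPS, and Idh2 and Aco1 are higher after IL-4 then LPS (Idh2 at 31.5 and 26.4 CPM) than after LPS (Idh2 at 17.8 and 16.6 CPM).

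Whether prior IL-4 altered the response to LPS was tested directly, as an interaction. In edgeR 0 of the 41 genes were called in either direction, without or with the replicate block, DESeq2 called 0, and 1 gene, Idh2, had an unadjusted p under 0.05 (0.53 ± 0.21, adjusted p 1). Of all tested genes 0% were higher and 0% lower without the block, and 0% and 0.00817% with it. Without the block, 322 of the 12234 tested genes had an unadjusted p under 0.05 by edgeR. With no filter on low counts, however, edgeR called 2 of the 41 lower, Gapdh and Pfkfb3, and the count over all genes in that run is not given here. In the other fits no difference was detected at this size of study, which does not show that the responses were alike. With the filter and without the block the estimates were -1.13 ± 0.93 for Pfkfb3, -0.64 ± 0.37 for Slc2a1, -0.43 ± 0.26 for Hk3, 0.37 ± 0.35 for Hif1a and -0.57 ± 1.21 for Acod1. For the well-counted Pfkp and Ldha they were -0.31 ± 0.18 and -0.13 ± 0.20.

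The makeup of 4 enzyme families is given as the share of each paralog in the per-kb reads of its family, which does not depend on the scaling of libraries. Among phosphofructokinase subunits the share of Pfkp was 36.5% and 29.4% in control, 53% and 46.1% after LPS, 52.2% and 50.2% after IL-4 and 65.9% and 64.1% after IL-4 then LPS. Control was lowest and IL-4 then LPS highest, without overlap, and LPS overlapped IL-4. The share of Pfkl was 52% and 58.5% in control, 42.2% and 47.7% after LPS, 37.7% and 38.5% after IL-4 and 29.2% and 28.8% after IL-4 then LPS.

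Among the Pfkfb enzymes, Pfkfb4 was the leading form in every library without LPS, at a mean of 63.9% in control and 69% after IL-4. Pfkfb3 led in every library with LPS, at 91.7% and, after IL-4 then LPS, 86.7%. Hk3 made up most hexokinase reads throughout, from 74.1% after LPS to 86% after IL-4. Of the Pdk kinases, Pdk3 went from 41.7% in control to 66.4% after LPS and from 38.4% after IL-4 to 63% after IL-4 then LPS. Pdk2, which is not 1 of the 41 genes, went from 26.4% to 1.99% and from 25.4% to 3.49%.

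**Figure D4:**
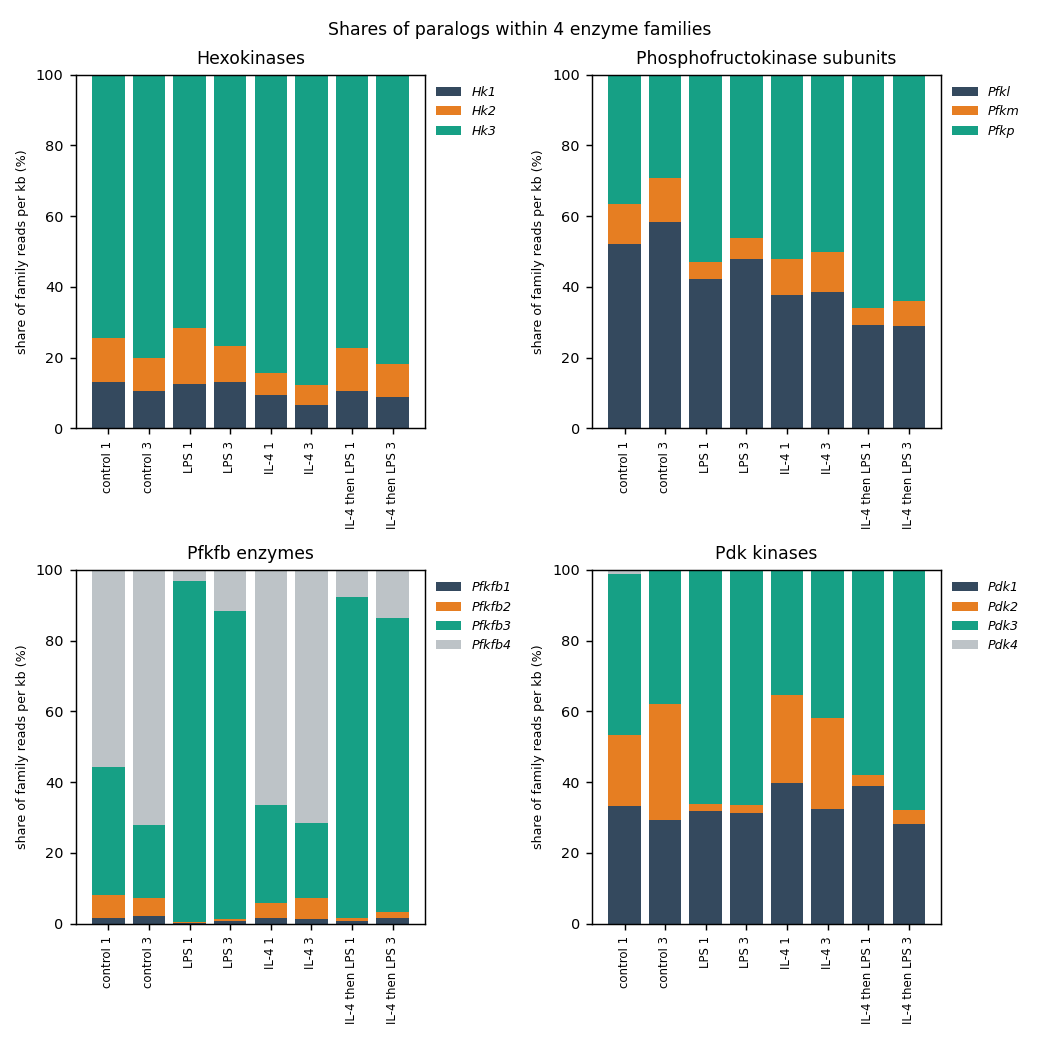
Share (%) of each paralog in the per-kb reads of its family, 1 bar per library, for hexokinases, phosphofructokinase subunits, Pfkfb enzymes and Pdk kinases. Pfkfb3 replaces Pfkfb4 as the leading form, and Pdk2 nearly leaves the Pdk reads, in each of the 4 libraries with LPS, and the Pfkp share is lowest in control (mean 32.9%) and highest after IL-4 then LPS (65%).

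A further 85 genes of the same pathways were listed, and 77 of them were tested. In LPS against control 8 were higher and 21 lower, while after prior IL-4 9 were higher and 16 lower (background 21.8% and 18.6%, and 20.7% and 18.6%). Their medians were -0.17 and -0.14. In IL-4 against control, in IL-4 then LPS against LPS and in the difference of responses, edgeR and DESeq2 called 0 of the 77. An unadjusted p under 0.05 by edgeR was found for 4, 7 and 1 of them, and for 892, 1040 and 322 of the 12234 tested genes. With the replicate block, Vegfa, the vascular growth factor, was lower in IL-4 against control (-1.05 ± 0.12, adjusted p 0.00369) and in IL-4 then LPS against LPS (-0.96 ± 0.15, 0.0159).

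Named by size, the changes in LPS against control were led by Slc2a6, a lysosomal hexose transporter (3.66 ± 0.65), Pdk2 (-3.33 ± 0.32), Egln3, a prolyl hydroxylase that marks Hif1a for decay (-3.16 ± 0.97), and Gpd2, the mitochondrial glycerol phosphate dehydrogenase (2.75 ± 0.16). They went on with Pfkfb2 (-2.30 ± 0.32), Slc2a3, the glucose transporter GLUT3 (-2.21 ± 0.36), Vegfa (-1.97 ± 0.42) and Eno3, the muscle enolase (-1.87 ± 0.57). Leaving out 1 library moved Slc2a6 to 3.01 without control replicate 1 and 4.63 without control replicate 3, and Slc2a3 to -2.87 without LPS replicate 1. Egln3 held 96 and 31 reads in control and 3 and 6 after LPS, and its call was lost without control replicate 1 or either LPS library (-3.74 to -2.33, highest adjusted p 0.171). Eno3 held 4 to 27 reads, and its call was lost without either control or LPS library and without either library of IL-4 then LPS (-2.13 to -1.69, 0.148).

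After prior IL-4 the changes named were those of Slc2a6 (3.28 ± 0.64), Pdk2 (-2.76 ± 0.31), Gpd2 (2.38 ± 0.15), Slc2a3 (-2.30 ± 0.38), Vegfa (-1.83 ± 0.44), P4ha1, a collagen prolyl hydroxylase (1.78 ± 0.12), and D2hgdh, which removes D-2-hydroxyglutarate (-1.75 ± 0.39). Slc2a6 was at 4.24 without IL-4 replicate 3. The Vegfa call was lost without IL-4 replicate 1 or IL-4 then LPS replicate 3 (-2.25 to -1.42), and that of D2hgdh without IL-4 then LPS replicate 3 (-2.28 to -1.35). Of the 15 tested genes of the hypoxia-inducible factor pathway 3 rose and 3 fell in LPS against control, near the background of 21.8% and 18.6%. Among them P4ha1 (1.86 ± 0.12) rose and Vegfa fell.

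Replicate 1 was higher than replicate 3 in all 4 groups for 9 of the 41 genes, lower in all 4 for 8, and mixed for 24. The same count was not made over all tested genes, so it is not read as a trait of the 41. Beyond Pfkfb3, such differences included those of Slc2a1 (1.22 to 1.48-fold), Pdk1 (1.24 to 1.86-fold) and the X-linked Pgk1 (1.19 to 1.49-fold), which were higher in replicate 1. Gapdh was also higher in replicate 1 (1.37 to 17.85-fold, the largest in the IL-4 group), and Acod1 (0.134 to 0.937-fold) was lower. Since replicate number goes with sex in all 4 groups, sex, culture and library batch cannot be told apart in these differences. The edgeR p-values above measure only the spread between the 2 libraries of each group, pooled over the 4 groups and drawn towards that of other genes. Without the block this spread includes the difference between replicate numbers, and with the block that difference is taken out.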

How the data were processed

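The data are RNA-seq counts of 8 libraries of mouse macrophages, 2 in each of 4 groups. The authors deposited raw read counts per gene, made with HISAT2, StringTie and HTSeq on mm10 per the submitters' processing notes, with no versions. The deposited gene length was used only for values per kb. Strandedness and the treatment of reads with several matches are not given in the sources used here. A further 6 count columns match no sample in the labels and were left out. Totals per library were 7924932 to 9431852.

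Genes were kept by filterByExpr and scaled by TMM (factors 0.787 to 1.25) in edgeR 4.0.16 (R 4.3.3), with 1 mean per group over all 8 libraries (4 residual and 3.78 prior degrees of freedom), and 5 contrasts were tested by quasi-likelihood. The SE was approximated as the size of the log2 fold change over the root of F. Alternatives were DESeq2 1.42.0, other scalings, no filter, only the groups compared, each library left out, and the replicate number as a block. The fits were tested on simulated data. Deviations from group means of same-numbered libraries correlated in all 6 pairs of groups (r 0.343 to 0.524), and replicate 1 expressed Xist and replicate 3 Y-linked genes in every group, so the numbers were taken to pair libraries, although no label states a shared animal.

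The genes and lists were chosen with earlier results of these data known. Of each role the up to 4 genes with the largest called LPS change were given in every library, with Acod1, Hif1a, Slc2a1 and each gene called in a comparison of IL-4. Of other pathway genes the 8 largest called changes per LPS comparison were named, except 1 that is not reported here.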

Additional observations from a re-analysis of the deposited data

How the results depend on the processing

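With the replicate block in the fit, the paired counts given above changed no other call of the 41 genes. The counts of genes called higher in both LPS comparisons (11 and 10) stayed within 1.5 times under every scaling, DESeq2, no filter and the replicate block. Counts lower rose from 7 to 14 with upper-quartile factors and to 24 with library size alone in LPS against control, and from 6 to 10 and to 24, respectively, in IL-4 then LPS versus IL-4. Over all tested genes they rose from 2279 to 3542 and to 5744, and from 2271 to 3426 and to 5320. With no filter on low counts, 1 gene was called higher in IL-4 against control (Gapdh), 1 higher and 3 lower in IL-4 then LPS against LPS, and 2 lower in the difference of responses (Gapdh and Pfkfb3). The cause was not tested. The replicate block called 2 higher in IL-4 against control and 2 in each direction in IL-4 then LPS against LPS, and DESeq2 called 1 higher in IL-4 against control. With each library left out in turn, 10 to 11 genes were higher and 4 to 7 lower in LPS against control, and 6 to 10 higher and 3 to 4 lower in IL-4 then LPS versus IL-4. In the fits with the block that left out 1 library, an alternative chosen after seeing the data, 0 to 2 were higher and 0 to 1 lower in IL-4 against control, and 0 to 2 in each direction in IL-4 then LPS against LPS. With library size alone the sign turned for 10 genes in LPS against control and 8 in IL-4 then LPS versus IL-4. Those called in either fit were Ldha (-0.40), Pgd (-0.56), Eno1 (-0.59), Cs (-0.056) and Sucla2 (-0.50) in LPS against control, and Ldha (-0.45), Cs (-0.022) and Ogdh (-0.52) in IL-4 then LPS versus IL-4.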
